A study of Mus musculus with 12 samples.

Results

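Pax6, Emx1, Emx2 and Lhx2 are transcription factors of cortical progenitors, and their transcripts were compared here between the rostral and the caudal end of the embryonic mouse neocortex. They were chosen by symbol: 5 probes of the deposited table carry one of these 4 names in the platform annotation, 2 of them for Pax6 and 1 for each of the others, out of 21998 probes in all. The Entrez identifiers given there are 18508 for Pax6, 13796 for Emx1, 13797 for Emx2 and 16870 for Lhx2. All 4 genes passed the filter on missing values and stand among 14418 features tested, of which 11490 are named genes. Amplified cDNA of the rostral end competed with that of the caudal end on arrays that read the dyes Cy3 and Cy5. Tissue was taken at E13.5 and pooled within a litter, 3 embryos to a pool per the sample labels. MF1, an outbred mouse, gave 3 pools, and C57, an inbred one named C57Bl\6 in the design text, gave another 3; each pool was hybridised to 2 arrays with the dyes exchanged, so 12 arrays hold 6 pools. The labels name no genotype or treatment besides the strain. Whether pools of 1 strain share a litter is left unstated there, and the p-values therefore measure the scatter among the pools sampled, which can be technical in part.

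In the mouse, Pax6, a paired-box and homeodomain protein, is known to run from high rostrolaterally to low caudomedially in the ventricular zone, and Emx2, a homeodomain protein, to run the other way. Loss of Pax6 is known to enlarge caudal areas of the cortex at the cost of rostral ones, and loss of Emx2 to do the reverse. Emx1 is the close relative of Emx2 and marks dorsal progenitors and their neurons. Lhx2, a LIM-homeodomain protein, gives dorsal progenitors their cortical identity and keeps them from becoming hem, the signalling tissue at the medial edge, or antihem, its lateral counterpart. The comparison asks how far these gradients appear as ratios between the ends of the cortex, and whether both strains show them.

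Values are log2 ratios, rostral divided by caudal, after the median of each array was set to 0, so that a ratio below 0 means less transcript rostrally than caudally, relative to the other transcripts. In tissue RNA, fewer cells with a transcript and less transcript per cell cannot be told apart. No source used here names the numerator channel, which was taken to be Cy5, with Cy3 as denominator. With that choice the nuclear receptor Nr2f1, which is known to be higher caudally, stood at -1.14 ± 0.57 (SD, n = 6 pools), and the FGF-induced genes Etv5 and Spry2, known from the rostral side, had ratios of 0.54 ± 0.05 and 0.50 ± 0.19. Nr2f1, Etv5 and Spry2 were picked after their values were seen, so they cannot settle the channel. The opposite choice of numerator would turn every sign given here, so directions are assumed rather than known. Of the probes, between 4.55% and 11.6% had no value on an array of MF1 and between 12.5% and 18.2% on one of C57. The spread of the ratios, as an SD estimated from the median absolute deviation, was 0.49 on average for MF1 and 0.74 for C57. MF1 pool 3 stood apart in its strain: its ratios correlated with those of MF1 pools 1 and 2 at Spearman -0.24 and -0.24 across features, while pools 1 and 2 correlated at 0.31. Agreement was weak in C57 too, at 0.014 for pools 1 and 2, 0.153 for pools 1 and 3 and 0.241 for pools 2 and 3. Over all 15 pairs of pools the correlations ran from -0.24 to 0.31, with 6 below 0. These arrays give ratios without levels, so the tissue label could not be checked against the abundance of its markers.

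Lhx2 was lower rostrally in every pool and on every array. Its ratios were -0.31, -0.48 and -0.45 in MF1 pools 1, 2 and 3 and -0.70, -0.49 and -0.56 in C57 pools 1, 2 and 3. All 6 pools were below 0, and the 3 MF1 pools lay above the 3 C57 pools by a narrow margin, -0.48 against -0.49 at the nearest. The arrays with rostral RNA in Cy5 ran from -0.72 to -0.34 and those with rostral RNA in Cy3 from -0.68 to -0.26. Even as deposited, before centring, the sign followed the dye without exception, from -0.954 to -0.462 with rostral RNA in Cy5 and from 0.265 to 0.863 with rostral RNA in Cy3. A ratio below 0 on 12 of 12 arrays was found for 25 of 10622 features with a value on every array, which is 0.235%.

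Over both strains Lhx2 averaged -0.50 ± 0.13 (SD, n = 6), a 1.41-fold difference, with a 95% interval of -0.74 to -0.25. It had the 85th smallest p of 14418 features and did not pass over all of them (limma, unadjusted p = 0.00203, adjusted p = 0.341). The exact two-sided sign-flip test over the 6 pools gave p = 0.03125, the smallest value that 6 pools can give. Without MF1 pool 3 the ratio was -0.49 (adjusted p = 0.424). When the 12 arrays were fitted singly, with pools as random blocks, Lhx2 passed (limma, adjusted p = 0.0386), in a model that counts both arrays of a pool as nearly independent (consensus correlation 0.00624). Its steadiness was itself uncommon: the arrays of a pool differed by 0.18 on average, against a median of 0.55 over features, and 1.85% of features had a smaller gap. Its SD over pools was smaller than that of all but 3.57% of features. In the RefSeq gene table noncoding RNAs overlap Lhx2, and these were not analysed here.

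**Figure D1:**
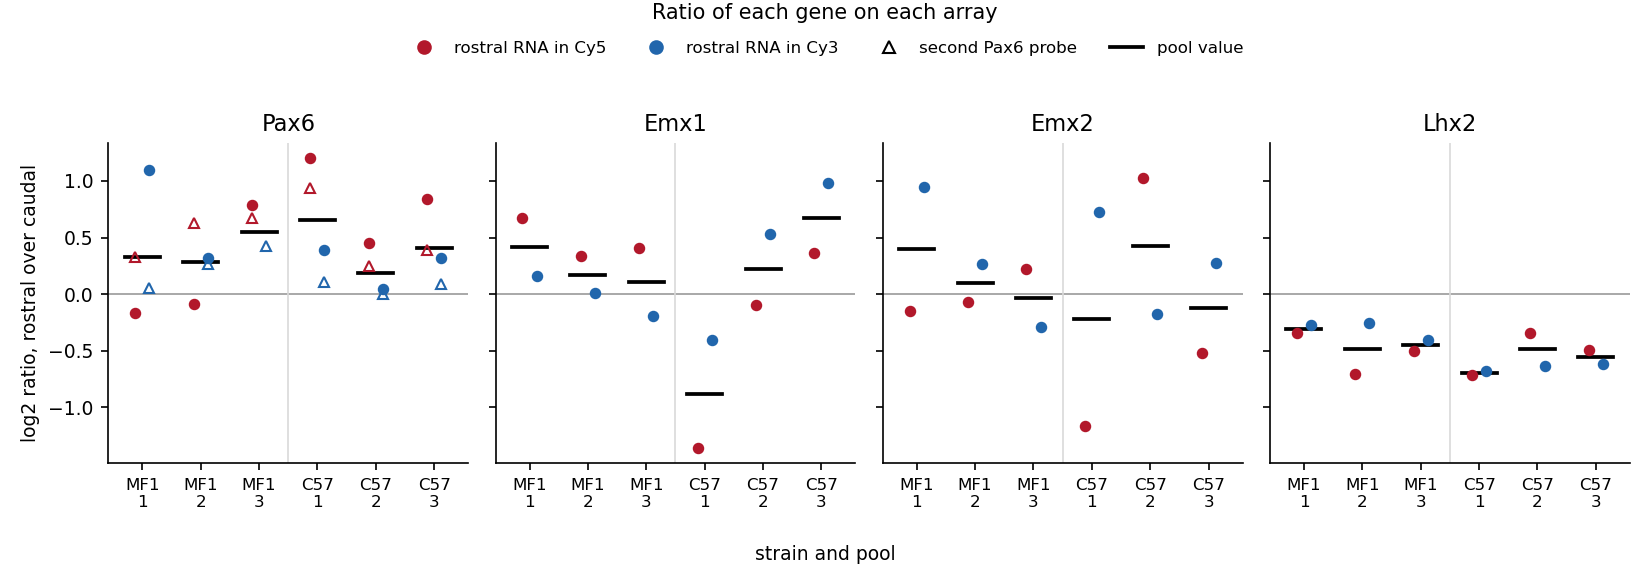
Rostral-over-caudal log2 ratios (vertical axis) on each array are plotted for Pax6, Emx1, Emx2 and Lhx2 by strain and pool (horizontal axis), with red marks for rostral RNA in Cy5, blue marks for rostral RNA in Cy3, open triangles for the second Pax6 probe and black bars for the pool value. Lhx2 lies between -0.72 and -0.26 on all 12 arrays, whereas the arrays of an Emx2 pool lie up to 1.89 apart. The bar of Pax6 in MF1 pool 3 rests on the second probe, because the first has no value on an array of that pool.

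Pax6 lay on the opposite side. Its ratios, averaged over the probes measured on both arrays of a pool, were 0.33, 0.28 and 0.55 in MF1 pools 1, 2 and 3 and 0.66, 0.19 and 0.41 in C57 pools 1, 2 and 3. All 6 pools were above 0, and the MF1 values lay inside the range of the C57 values. Averaged over the probes measured, Pax6 was also above 0 on 12 of 12 arrays after centring, from 0.02 to 1.07, as were 26 of 10622 features or 0.245%. Neither probe reached this alone, the first being above 0 on 9 of 11 arrays and the second on 11 of 12. As deposited, before centring, the sign did not follow the dye on every array, unlike that of Lhx2. With rostral RNA in Cy3, where a higher rostral level would read below 0, both probes read above 0 in pool 2 of each strain. They stood at 0.158 and 0.21 in MF1 pool 2 and at 0.109 and 0.154 in C57 pool 2. Over both strains Pax6 averaged 0.40 ± 0.18 (SD, n = 6), a 1.32-fold difference, with a 95% interval of 0.13 to 0.67. This did not pass over all features (limma, unadjusted p = 0.0108, adjusted p = 0.471), and the exact two-sided sign-flip test over pools gave p = 0.03125. Without MF1 pool 3 the ratio was 0.36. With arrays not centred it was 0.21 (limma, unadjusted p = 0.202), above 0 in 4 of 6 pools, and the exact sign-flip test gave p = 0.125.

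The probes of Pax6 gave the same sign in every pool, though they ranked the pools differently. The first probe had ratios of 0.46 and 0.11 in MF1 pools 1 and 2 and of 0.79, 0.25 and 0.58 in C57 pools 1, 2 and 3, with no value for MF1 pool 3. The second had 0.19, 0.45 and 0.55 in MF1 and 0.52, 0.12 and 0.24 in C57. Neither passed over all features in the fit of single probes (limma, unadjusted p of 0.0327 and 0.0217, adjusted p of 0.517 and 0.481). On single arrays the first probe was below 0 with rostral RNA in Cy5 in MF1 pools 1 and 2, at -0.17 and -0.09. The second was below 0 on 1 array, that of C57 pool 2 with rostral RNA in Cy3, at -0.003. It averaged 0.53 with rostral RNA in Cy5 and 0.16 with rostral RNA in Cy3. In the RefSeq gene table Pax6 is overlapped by Elp4, a subunit of the Elongator complex, and by the noncoding Pax6os1. Elp4 has a probe of its own, with a ratio of 0.10 ± 0.14 (SD, n = 6).

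Emx2 lay on both sides of 0. Its ratios were 0.40, 0.10 and -0.04 in MF1 pools 1, 2 and 3 and -0.22, 0.42 and -0.12 in C57 pools 1, 2 and 3. Each strain had pools on both sides of 0, with 3 of 6 above. The mean was 0.09 ± 0.27 (SD, n = 6) with a 95% interval of -0.23 to 0.41 (limma, unadjusted p = 0.516, adjusted p = 0.857), an interval that leaves room for a difference in either direction. The arrays of a pool disagreed in sign in 6 of 6 pools. In C57 pool 1, for example, Emx2 was at -1.16 with rostral RNA in Cy5 and at 0.72 with rostral RNA in Cy3. The mean gap between the arrays of a pool was 0.97, and 79.1% of features had a smaller one. Averaged by orientation the ratio was -0.11 with rostral RNA in Cy5 and 0.29 with rostral RNA in Cy3, and with arrays not centred it was -0.10. Emx2os, an antisense transcript of the same locus, is annotated within 1000 bases of Emx2, and no source used here states which strand the labelled cDNA represented.

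Emx1 had 5 of 6 pools above 0 and 1 far below. Its ratios were 0.42, 0.17 and 0.11 in MF1 pools 1, 2 and 3 and -0.88, 0.22 and 0.67 in C57 pools 1, 2 and 3. The MF1 pools lay inside the range of the C57 pools, which held both the lowest and the highest value. In C57 pool 1 both arrays were below 0, at -1.36 and -0.40. The mean was 0.12 ± 0.53 (SD, n = 6) with a 95% interval of -0.37 to 0.61 (limma, unadjusted p = 0.586, adjusted p = 0.881). Without C57 pool 1 it was 0.34 (unadjusted p = 0.0463, adjusted p = 0.522), and with arrays not centred it was -0.07. Without MF1 pool 3 the ratios were 0.15 for Emx1 and 0.14 for Emx2. The exact two-sided sign-flip tests over the 6 pools gave p = 0.594 for Emx1 and p = 0.438 for Emx2.

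Read against all features, 2 of the 4 genes, Pax6 and Lhx2, had an unadjusted p under 0.05 over both strains, and 0 passed the adjusted threshold of 0.05. Of all features 8.98% had such an unadjusted p, 4.34% with a higher and 4.64% with a lower rostral ratio, and 0% passed after adjustment. The smallest adjusted p of any feature was 0.147. A ratio of the same sign in 6 of 6 pools was shown by 5.96% of the 10596 features measured in every pool, above 0 as for Pax6 by 3.46% and below 0 as for Lhx2 by 2.49%.

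**Figure D2:**
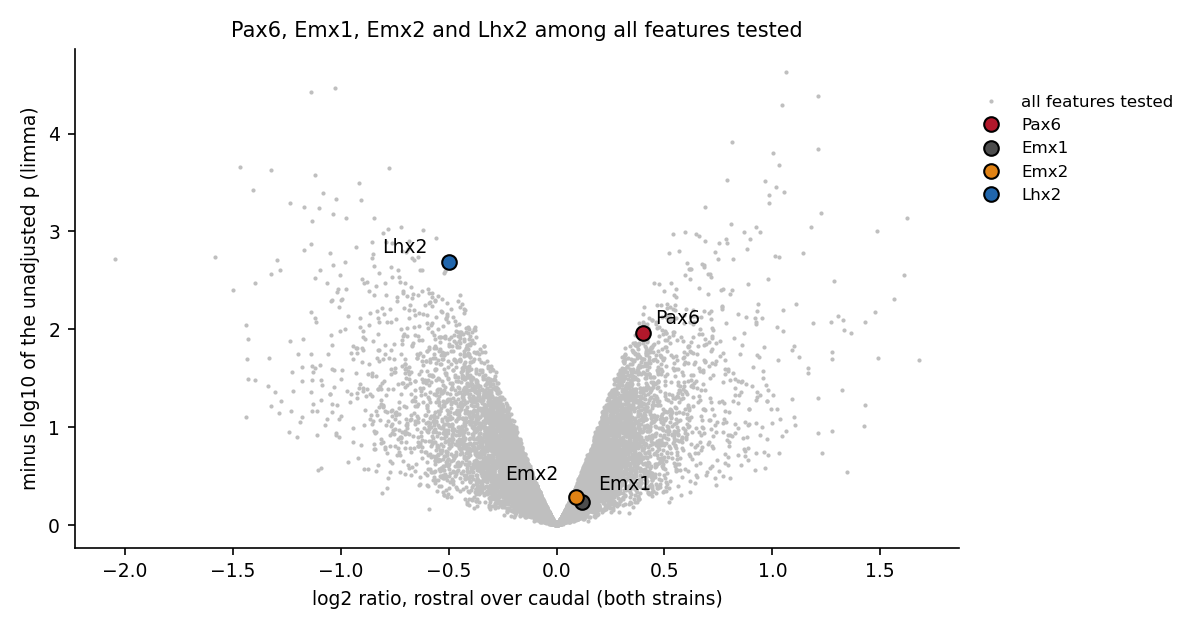
The fitted rostral-over-caudal log2 ratio over both strains (horizontal axis) is set against minus log10 of the unadjusted p of limma (vertical axis) for 14418 features in grey and for the 4 named genes in colour. Lhx2 at -0.50 and Pax6 at 0.40 lie on opposite arms, and Emx1 at 0.12 and Emx2 at 0.09 lie near the base.

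The study used a pair of strains to control for differences between them in expression patterns. Lhx2 averaged -0.41 ± 0.09 in MF1 and -0.58 ± 0.11 in C57 (SD, n = 3 pools each), and Pax6 averaged 0.38 ± 0.14 in MF1 and 0.42 ± 0.24 in C57. Emx2 averaged 0.15 ± 0.22 in MF1 and 0.03 ± 0.35 in C57, and Emx1 0.23 ± 0.16 in MF1 and 0.00 ± 0.80 in C57. Within MF1, 1 of the 4 genes (Lhx2, unadjusted p = 0.0254) was under an unadjusted 0.05, where 4.36% of features were. Within C57 there were 2 (Lhx2 at 0.0055 and Pax6 at 0.0385), where 9.71% of features were. After adjustment 0 passed in either strain by limma, as was so for 0% of all features, with adjusted p of 0.9995 for Lhx2 in MF1 and of 0.301 in C57. Other settings gave other counts over all features, up to 188 in C57 with rostral RNA in Cy3 only. With 1 orientation a dye effect is not averaged out, and it cannot be told apart from a rostral difference.

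The difference between the strains did not pass for any of the 4 genes. MF1 minus C57 was 0.17 for Lhx2 (95% interval -0.32 to 0.65), -0.03 for Pax6 (-0.58 to 0.52), 0.13 for Emx2 (-0.51 to 0.76) and 0.23 for Emx1 (-0.75 to 1.21). The unadjusted p of limma ran from 0.442 to 0.891 and the adjusted p from 0.968 to 0.998; 6.1% of features had an unadjusted p under 0.05 for this difference, and 0% passed. The intervals leave room for strain differences of up to 0.65 in size for Lhx2 and 0.58 for Pax6. Without 1 pool, the difference for Emx2 ran from 0.0023 (without C57 pool 1) to 0.32 (without C57 pool 2), and the MF1 mean of Emx2 was 0.031 without MF1 pool 1. Each array held 1 strain, and strain cannot be told apart from the larger spread and the larger share of missing values on the C57 arrays.

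**Figure D3:**
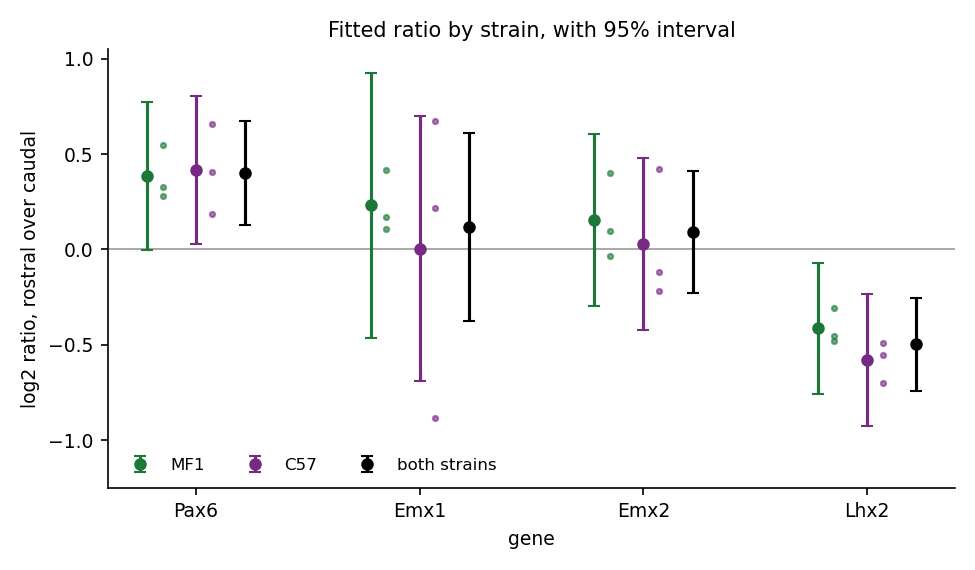
Fitted rostral-over-caudal log2 ratios (vertical axis) are shown for each gene (horizontal axis) in MF1 in green, in C57 in purple and over both strains in black, with bars for the 95% interval and small dots for the 3 pools of a strain. The intervals of both strains overlap for every gene, and the C57 pools of Emx1 run from -0.88 to 0.67.

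Set against each other within a pool, where the centring of the array drops out, Pax6 exceeded Lhx2 by 0.90 ± 0.27 (SD, n = 6), in 6 of 6 pools and on 12 of 12 arrays. After centring, Pax6 was above 0 and Lhx2 below 0 throughout, so the sign of this difference was already given. The difference ran from 0.63 to 1.36 over pools and from 0.42 to 1.79 over arrays. Emx2 exceeded Lhx2 by 0.59 ± 0.19, in 6 of 6 pools and on 10 of 12 arrays. Although Emx2 and Lhx2 are both known for a caudal gradient, their ratios differed in the same direction in every pool. Emx1 exceeded Lhx2 by 0.62 ± 0.46, in 5 of 6 pools and on 11 of 12 arrays.

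Of the 6 pairs, Pax6 with Lhx2 and Emx2 with Lhx2 reached p = 0.03125 in the exact two-sided sign-flip test, the smallest value 6 pools allow. For Pax6 with Lhx2 the sign of each gene in every pool had fixed that outcome, so it adds no further support. Adjusted over the 6 pairs the exact p was 0.0938 for both, and 0 pairs passed. With rostral RNA in Cy5 only, Emx2 with Lhx2 no longer reached it (0.41, exact p = 0.188), against 0.77 at p = 0.03125 in Cy3 only. Without MF1 pool 3 the differences were 0.88 for Pax6 with Lhx2 and 0.62 for Emx2 with Lhx2. Each then had an exact p of 0.0625, which is the smallest value possible with 1 pool left out. Over all 6 pools Emx1 with Lhx2 gave an exact p of 0.0625 and an adjusted p of 0.125. Pax6 exceeded Emx2 by 0.31 ± 0.43 in 4 of 6 pools (exact p = 0.188) and Emx1 by 0.28 ± 0.66 in 3 of 6 pools (exact p = 0.406). Without C57 pool 1 the differences of Pax6 from Emx1 and from Emx2 were 0.03 and 0.20. The paralogues Emx1 and Emx2 differed by 0.03 ± 0.48, with single pools between -0.66 and 0.79 (exact p = 0.812, adjusted p = 0.812). In order of their means the genes stood as Pax6, Emx1, Emx2 and Lhx2, in which Pax6, Emx1 and Emx2 did not differ beyond their spread.

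**Figure D4:**
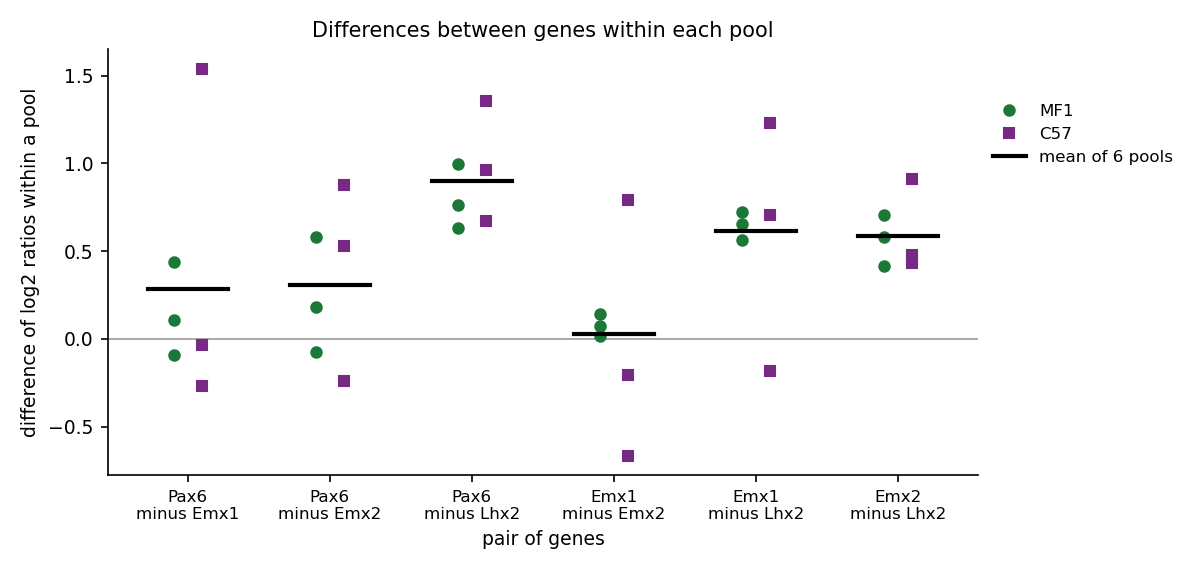
The difference between the log2 ratios of 2 genes within a pool (vertical axis) is plotted for each of the 6 pairs (horizontal axis), with green circles for MF1 pools, purple squares for C57 pools and black bars for the mean of 6 pools. Pax6 minus Lhx2 lies between 0.63 and 1.36 and Emx2 minus Lhx2 between 0.42 and 0.91, whereas the other pairs have pools on both sides of 0.

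Other transcription factors that pattern the same progenitors did not share a side. Of 20 listed, 13 had a probe and 12 were tested, with 8 above 0, 4 below and a median of 0.07, beside a median of 0.01 and 7437 of 14418 features above 0 in all. After adjustment 0 passed (limma). At an unadjusted p under 0.05 stood Nr2f1, named above, and Hes5, a Notch target that keeps progenitors undifferentiated, at 0.49 ± 0.50 (SD, n = 6). Both had the same sign in 6 of 6 pools, but their sizes differed by strain. Hes5 averaged 0.09 in MF1 and 0.89 in C57, and Nr2f1 averaged -0.65 in MF1 and -1.625 in C57. Sox2, the general factor of neural progenitors, was at 0.05, and Gli3, the transducer of hedgehog signals that sets up the hem, at -0.09. Dmrt3, Dmrta1, Dmrta2, Sp8 and Nr2f2 were not analysed here.

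Among genes that act downstream of Pax6 in neuron production, 11 of 12 were tested, with 8 above 0 and 3 below. Their median was 0.21, and 0 passed after adjustment (limma). Insm1, a zinc finger protein of dividing neuronal precursors, was above 0 in 6 of 6 pools at 0.31 ± 0.17 (SD, n = 6, unadjusted p = 0.0327, adjusted p = 0.524). Neurod1, a proneural factor, was below 0 in 5 of 6 pools at -0.25 ± 0.20. Neurog2, the proneural factor that Pax6 activates, was at 0.28, and Eomes, the factor of intermediate progenitors, at 0.03. Tbr1 had the largest ratio of the list, 0.53 ± 0.66, and was above 0 in 5 of 6 pools (limma, unadjusted p = 0.0732, adjusted p = 0.589). The pool medians of this list lay between -0.13 and 0.17, and as medians of several genes they cannot be set against the ratio of a single gene.

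In the family of Lhx2, the LIM-homeodomain proteins and the LIM-binding cofactors they need, 17 of 21 were tested, with 7 above 0 and 10 below and a median of -0.12. Again 0 passed after adjustment (limma). Lmo2, a LIM-only protein that binds the same cofactor, was below 0 in 6 of 6 pools at -0.45 ± 0.23 (SD, n = 6, unadjusted p = 0.00592, adjusted p = 0.445). Lmx1a, the LIM-homeodomain factor of the hem, was below 0 in each of the 4 pools measured, at -1.33 ± 1.06. The cofactors Ldb1 and Ldb2 were at 0.23 and -0.16. Lhx9, the closest relative of Lhx2, was at -0.05. Of the other Pax genes 3 of 8 were tested, Pax4 at 0.22, Pax7 at 0.05 and Pax8 at 0.28, with 0 past adjustment.

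Hem and antihem flank the tissue that Lhx2 maintains. For the hem 15 of 17 genes were tested, 5 above 0 and 10 below, with a median of -0.12. Besides Lmx1a, Msx2, a BMP target, was at 0.40 ± 0.39 (SD, n = 6), its means being 0.06 for MF1 and 0.74 for C57. On the other side, Gdf7 was at -0.71 ± 0.80, below 0 in 5 of 5 pools, and Rspo3 at -0.40 ± 0.49, below 0 in 5 of 6. Their unadjusted p was 0.041 and 0.042, and the adjusted p 0.538 for both (limma). For the antihem 2 of 6 were tested, Sfrp2, a secreted Wnt inhibitor that depends on Pax6, at -0.08 ± 0.29, and Tgfa, a growth factor, at 0.11 ± 0.15. Of these lists 0 genes passed after adjustment (limma).

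Markers of progenitors and of neighbouring tissue were read beside these ratios. Radial glia, the progenitors that express Pax6, Emx2 and Lhx2, had a median of 0.05 over 15 genes, 10 above 0 and 5 below. Among them Cdh2, an adhesion molecule, was at 0.49 ± 0.24 (SD, n = 6). Ednrb, of the same list, lay below 0 in 6 of 6 pools at -0.40 ± 0.31 (limma, unadjusted p = 0.019, adjusted p = 0.484). Postmitotic neurons had a median of 0.01 over 15 genes, 9 above 0 and 6 below, with the neuronal transcription factors Foxp1 at 0.40 ± 0.15 and Bcl11b at 0.41 ± 0.24. Mapt, the microtubule-binding protein tau, lay below 0 in 6 of 6 pools at -0.28 ± 0.18 (limma, unadjusted p = 0.0385, adjusted p = 0.538). Over pools the radial glia medians ran from -0.07 to 0.29 and the neuronal ones from -0.16 to 0.12. Choroid plexus genes lay below 0 like Lhx2, with 6 of 6 tested below 0 and a median of -0.29. They were led by Ttr, the transport protein of that tissue, at -0.92 ± 1.09 and the water channel Aqp1 at -0.61 ± 0.70. Ttr was below 0 in 5 of 6 pools, but stood at 1.19 in C57 pool 1, where Lhx2 was lowest. The pool medians of the choroid plexus list were -0.10, -0.13 and -0.16 in MF1 and -0.12, -0.44 and -0.91 in C57, lowest in C57 pool 3. Genes of meninges and mesenchyme had a median of -0.08, 2 of 11 above 0, with pool medians from -0.38 to 0.10, and Twist2 and Vtn, a mesenchymal factor and vitronectin, at -0.45 ± 0.49 and -0.44 ± 0.70. The part of these tissues in the ratio of Lhx2 was not tested.

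The remaining lists lay near 0. Genes of the ventral telencephalon, where Pax6 is low, had a median of 0.09 over 14 genes, with Zic1, a zinc finger factor of the rostral midline, at 0.78 ± 0.31 (SD, n = 6) and Dlx5, a homeobox factor of interneurons, at -0.63 ± 0.32, each with the same sign in 6 of 6 pools. In C57 pool 1, the pool in which Emx1 was lowest, the median of this list was -0.33, and its part in the value of Emx1 was not tested. Diencephalon and eye, which also express Pax6 and Lhx2, had a median of 0.01 over 9 genes, with Irx1, a homeobox factor, at 0.29 ± 0.13 and Mitf, the factor of pigment cells, at -0.47 ± 0.42. Blood, vessels and microglia had a median of -0.02 over 9 genes, with the embryonic globin Hba-x at -0.21 ± 0.36 and the microglial adaptor Tyrobp at 0.26 ± 0.21. Across the 13 lists 0 genes passed after adjustment (limma), as in the whole table. Before centring, features as a whole had a median of -0.18, and list medians turned below 0 for the other patterning factors (-0.12), radial glia (-0.14), postmitotic neurons (-0.18), ventral telencephalon (-0.09), diencephalon and eye (-0.18) and antihem (-0.17), while that of genes downstream of Pax6 was 0.02.

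**Figure D5:**
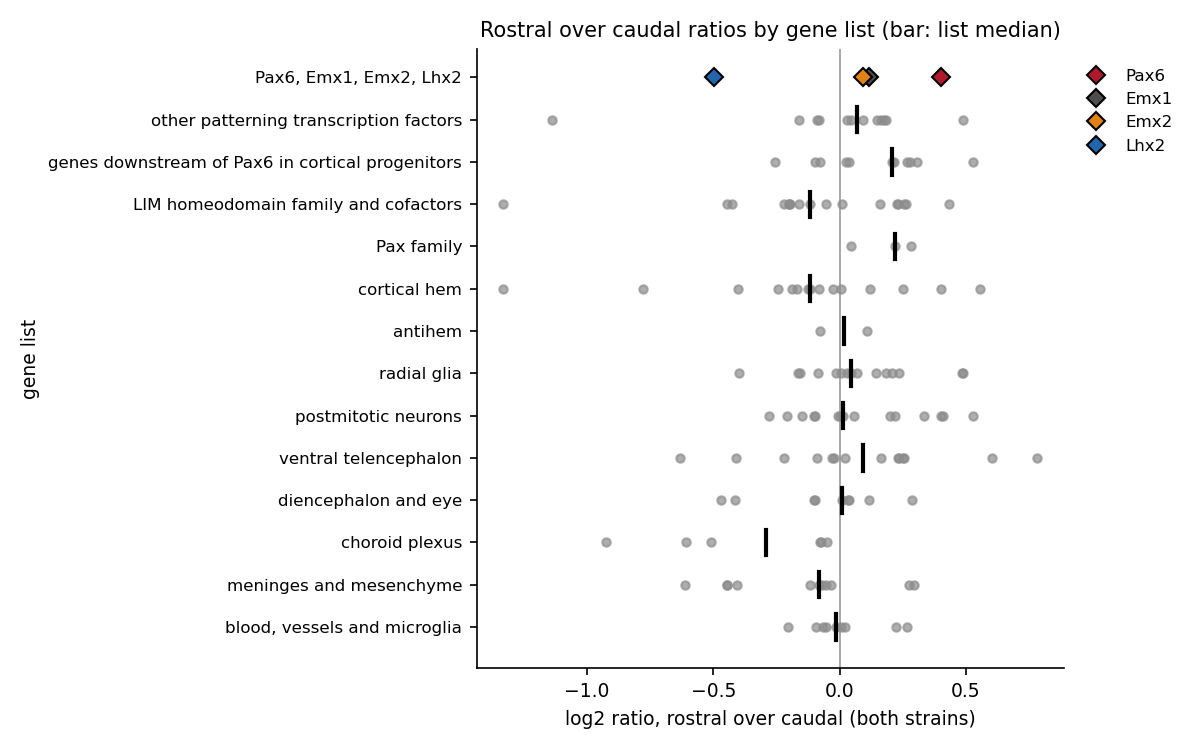
Fitted rostral-over-caudal log2 ratios over both strains (horizontal axis) are plotted by gene list (vertical axis), with 1 grey point per tested gene, a black bar at the list median and coloured diamonds for the 4 named genes in the top row. List medians lie between -0.29 for choroid plexus and 0.22 for the Pax family, and single genes between -1.33 for Lmx1a and 0.78 for Zic1. Lhx2 at -0.50 and Pax6 at 0.40 lie within that range of single genes.

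The genes most like each of the 4 were found by the root mean square difference of the log2 ratios over the 6 pools, among 8879 named genes measured in every pool. Nearest to Lhx2 were Limk2, a kinase of the actin cytoskeleton, Lmo2 and Gdpd2, a phosphodiesterase, with root mean square differences of 0.16, 0.16 and 0.18. Nearest to Pax6 were Ghr, the growth hormone receptor, H2az2, a histone variant, and Ptn, the growth factor pleiotrophin, with 0.06, 0.10 and 0.10. For Emx2 these were Phka1, Gdf5 and Ppif, with 0.07, 0.09 and 0.10, and for Emx1 Mir99ahg, Nbea and Pola1, with 0.11, 0.14 and 0.15. Among the 4 genes themselves the closest pair was Emx1 and Emx2, with a root mean square difference of 0.44, which placed Emx2 at rank 792 from Emx1 and Emx1 at rank 4023 from Emx2. These likenesses rest on 6 pools and describe the ratios of these pools alone.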

How the data were processed

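Judged by its range (signed, near 0, ceiling 16.61), the deposited table holds a log2 ratio of dyes per probe and array. Labelling followed amplification of the cDNA with SMART, per the labels' design text, a step that can distort ratios. The authors' background correction, normalization and numerator channel are stated in no source used here. No spot intensities were used, so the number of arrays limits the precision and dim spots were not marked. The table held 0 columns of other samples. 701 values equal to the ceiling were set to missing. Each array was centred on its median (-0.41 to 0.475 before), and arrays with rostral RNA in Cy3 were turned. If the deposited values run by dye, a pool's arrays, each less its strain's mean for that orientation, correlate below 0; Spearman correlations were -0.21, -0.17 and -0.31 in MF1 pools 1 to 3 and -0.10, -0.14 and 0.016 in C57.

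Both arrays of a pool were averaged, then the probes of a gene. A feature needed 2 such pools per strain. The fit to pool means used limma 3.58.1 under R 4.3.3 (a mean per strain, 1 shared spread, Benjamini-Hochberg over all features, threshold 0.05), tested on simulated data. Exact sign-flip tests used scipy 1.17.1. Genes, lists and tests were chosen with earlier results of these data known. Besides the 4 genes, the text names from each of 13 lists those that passed or, with none, the 2 with the smallest p, patterning factors with the same sign in 6 of 6 pools, and the 3 nearest genes of each. List members given beside these, and the genes named for the direction, were chosen after their values were seen. Same-numbered pools of the strains are different mice and were not paired (correlation of their deviations -0.14, 0.06 and -0.0039). The alternatives were other centring and scaling, ceiling values kept, 1 dye orientation, single arrays, single probes, other filters, each pool left out and a replicate block.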

Additional observations from a re-analysis of the deposited data

Results flagged for a closer look

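In C57 pool 1 the ratio of Emx1 was -0.88, far below the 5 other pools: its gap to the next pool, divided by the range of all 6, was 0.637, above Dixon's 95% critical value of 0.625. Such a gap comes up by chance in about 1 of 20 groups, and 4 genes were looked at. Both arrays of the pool were below 0, at -1.36 with rostral RNA in Cy5 and -0.40 with rostral RNA in Cy3. In the same pool Lhx2 and Emx2 had their lowest ratios (-0.70 and -0.22) and Pax6 its highest (0.66).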

How the results depend on the processing

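Lhx2 stayed below 0 over both strains under all 15 alternatives run, from -0.69 with arrays not centred to -0.47 without C57 pool 1, with adjusted p of 0.0386 to 0.733. Its adjusted call changed under 1 of them, to -0.50 and past the threshold on the 12 arrays. Pax6 stayed above 0 under all 17, from 0.21 (arrays not centred, where the exact sign-flip test no longer passed) to 0.52 (rostral RNA in Cy5 only).

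Emx1 and Emx2 had signs that depended on the setting. Uncentred, with the median of all features at -0.18, Emx1 gave -0.071 over both strains and -0.16 in C57, and Emx2 gave -0.10 over both, -0.060 in MF1 and -0.13 in C57. With rostral RNA in Cy5 only, Emx1 was at -0.36 in C57, and Emx2 at -0.11 over both strains and -0.22 in C57. With rostral RNA in Cy3 only, Emx1 was at -0.0077 in MF1 and Emx1 minus Emx2 at -0.11. Pax6 minus Emx2 was 0.63 with rostral RNA in Cy5 only and 0.0018 in Cy3 only, and Emx2 minus Lhx2 was 0.41 (exact p = 0.188) and 0.77 (exact p = 0.03125) in that order. Leaving out 1 pool gave Emx1 -0.050 (without C57 pool 3) to 0.34 (without C57 pool 1) over both strains and -0.33 to 0.45 in C57, Emx2 -0.0074 (without C57 pool 2) to 0.15 over both strains and -0.17 to 0.15 in C57, and Emx1 minus Emx2 -0.13 (without C57 pool 3) to 0.16.

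MF1 minus C57 turned for Pax6 to 0.14 and for Lhx2 to -0.045 with arrays scaled. With rostral RNA in Cy3 only it was 0.27 for Pax6 and -0.38 for Emx1. It was 0.10 for the second Pax6 probe and for features complete on the 12 arrays. Leaving out 1 pool gave -0.15 to 0.088 for Pax6 -0.21 to 0.56 for Emx1 and 0.0023 to 0.32 for Emx2. In each case the cause was not tested.

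Features past the adjusted threshold over both strains numbered 0 by limma on pool means (1295 at an unadjusted p under 0.05), 25 on the 12 arrays and 6 among features complete on them, with 0 under the other settings. Within C57 they numbered 118 with rostral RNA in Cy5 only, 188 in Cy3 only and 11 on the 12 arrays, and within MF1 3 on the 12 arrays, against 0 on pool means. The settings with 1 orientation leave any dye effect in the ratios, so their counts are not counts of rostral differences alone. With the pool number as a replicate block Lhx2 was at -0.50 (adjusted p = 0.733) and Pax6 at 0.40, and the block changed no call.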
